A study of Mus musculus with 48 samples.

Results

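Skin with high and with low expression of hair follicle keratins was compared among 48 mice, each measured once on an array. Each array was scored by the mean log2 intensity of Krt25, Krt27 and Krt71, keratins of the inner root sheath, the layer that encloses and moulds a growing hair. The arrays were ranked within each of 3 studies, and the 8 highest and 8 lowest arrays of Study 1, and the 4 highest and 4 lowest of Study 2 and of Study 4, were taken. This gave 16 high and 16 low arrays, 32 of 48 in all, and left 16 between them. The score genes were chosen as a sign of hair growth, but the labels give no hair phase and the phase of the biopsies was not measured, so the arrays are called high and low here. Krt28 and trichohyalin (Tchh) belonged to the same rule and were not analysed here.

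The mice were male C57BL/6 with obesity from a high-fat diet, labelled as 8 weeks old. They were dosed by mouth for 14 days with vehicle (methylcellulose) or with a DGAT1 inhibitor, a small molecule against an enzyme of triglyceride synthesis, before 1 small biopsy of dorsal skin was taken from each. The labels name dorsal skin throughout, while the methods name dorsal skin, ventral skin or both. Study 1 compared Cpd1, Cpd2 and vehicle with 8 mice each, Study 2 compared Cpd2, Cpd6 and vehicle with 4 mice each, and Study 4 compared Cpd6, Cpd18 and vehicle with 4 mice each. All mice shared strain, diet, route and duration, and the agent differed. The paper gives a lower dose for Cpd1 than for Cpd2 in its skin sections. Dose and agent can thus not be told apart. Cpd1, Cpd2, Cpd6 and Cpd18 are written as Cmpd in the labels.

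Hair follicles cycle between growth (anagen), regression (catagen) and rest (telogen). In growth, dividing matrix cells around the dermal papilla give rise to the inner root sheath, which hardens with its own keratins and trichohyalin, and to the hair shaft, which hardens with hair keratins and with the cysteine-rich or glycine- and tyrosine-rich keratin-associated proteins that fill the space between keratin filaments. Melanocytes of the growing bulb pass pigment to the shaft, and the resting follicle lacks matrix, inner root sheath and pigment production. Mouse skin cycles in patches, and the dermis and its fat layer thicken during growth.

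The genes that chose the arrays and those with the largest differences lie in keratin and keratin-associated gene clusters on mouse chromosomes 11, 15 and 16, and their promoters are shown because these genes moved together. Each sequence below runs from 100 bases before the RefSeq start of the gene to 20 bases after it, on the strand of the gene, in the build GRCm38.p6, and the capitals mark the letters TATAAA. The positions are chr11:99322932-99323051 for Krt25, chr11:99351099-99351218 for Krt27, chr15:101743078-101743197 for Krt71, chr15:101802341-101802460 for Krt73, chr11:100041535-100041654 for Krt34, chr11:99580997-99581116 for Krtap1-5, chr16:89047880-89047999 for Krtap6-5 and chr16:89010740-89010859 for Krtap22-2, all on the minus strand.
Krt25: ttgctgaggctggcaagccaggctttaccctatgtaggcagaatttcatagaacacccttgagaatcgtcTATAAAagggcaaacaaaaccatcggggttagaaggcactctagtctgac
Krt27: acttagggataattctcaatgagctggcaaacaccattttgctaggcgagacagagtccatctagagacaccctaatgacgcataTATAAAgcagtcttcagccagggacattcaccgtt
Krt71: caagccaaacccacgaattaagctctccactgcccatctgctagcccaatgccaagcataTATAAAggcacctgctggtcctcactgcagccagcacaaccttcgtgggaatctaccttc
Krt73: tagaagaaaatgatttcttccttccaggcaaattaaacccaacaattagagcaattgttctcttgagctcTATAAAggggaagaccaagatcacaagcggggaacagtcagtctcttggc
Krt34: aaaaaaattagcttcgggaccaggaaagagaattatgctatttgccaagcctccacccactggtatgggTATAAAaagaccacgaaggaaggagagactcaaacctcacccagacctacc
Krtap1-5: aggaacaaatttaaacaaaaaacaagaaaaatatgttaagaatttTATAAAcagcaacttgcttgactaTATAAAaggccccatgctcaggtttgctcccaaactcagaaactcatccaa
Krtap6-5: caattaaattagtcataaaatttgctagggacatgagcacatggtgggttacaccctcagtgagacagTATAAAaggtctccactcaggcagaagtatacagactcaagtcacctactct
Krtap22-2: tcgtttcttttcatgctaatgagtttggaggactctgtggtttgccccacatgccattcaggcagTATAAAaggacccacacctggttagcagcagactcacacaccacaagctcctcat

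The TATAAA motif began 30 bases before the start in Krt25 and Krt73, 31 in Krt34, 32 in Krtap6-5, 35 in Krtap22-2, 40 in Krt71 and 15 in Krt27, and Krtap1-5 held it at 31 and at 55. Over windows from 250 bases before to 50 after the start, on either strand (the complement TTTATA overlaps the motif in TTTATAAA), 82.4% of 34 windows of keratin-associated genes held the motif, as did 70.3% of 37 windows of genes called higher by over 16-fold. The share was 13.9% of 746 windows of all genes called higher, 11.7% of 179 windows of genes called lower, 9.04% of 15386 windows of all tested genes and 13.6% of all 32851 windows of the table. On the strand of the gene and between 20 and 40 bases before the start, the motif stood in 58.8% of the windows of keratin-associated genes, in 45.9% of those called higher by over 16-fold and in 2.04% of those of all tested genes. Many keratin-associated genes are also among the genes called higher and those past 16-fold, so these shares are not independent. The motif was chosen after these sequences were seen, and the keratin-associated genes are near copies of one another. A match describes letters and not a site in use.

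The score spanned 3.75 to 12.52 on the log2 scale over the 48 arrays and fell into a high and a low range, with 20 arrays above 9, 22 under 6 and 6 between. Krt25 had a lowest, median and highest log2 intensity of 10.72, 12.34 and 12.98 in the high arrays, against 3.95, 4.57 and 6.55 in the low arrays. Krt27 had 10.08, 12.16 and 12.98 in the high arrays, against 2.76, 4.61 and 5.61 in the low arrays. Krt71 had 7.74, 10.28 and 11.77 in the high arrays, against 2.88, 3.51 and 4.12 in the low arrays. The 3 genes chose the arrays, so these values are a description without a test, and their levels correlated with one another over the 48 arrays at 0.976 to 0.977.

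The edges of the selection were sharp on the high side in Study 2 and narrow elsewhere. In Study 1 the lowest high array scored 10.27 beside 9.86 for the next array, and the highest low array scored 4.73 beside 4.77. In Study 2 these values were 9.51 beside 7.69, and 4.49 beside 4.50. In Study 4 they were 11.63 beside 11.29, and 5.03 beside 5.41. The high and low arrays of a study were separated by 5.54, 5.02 and 6.61 log2 units in Studies 1, 2 and 4.

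**Figure D1:**
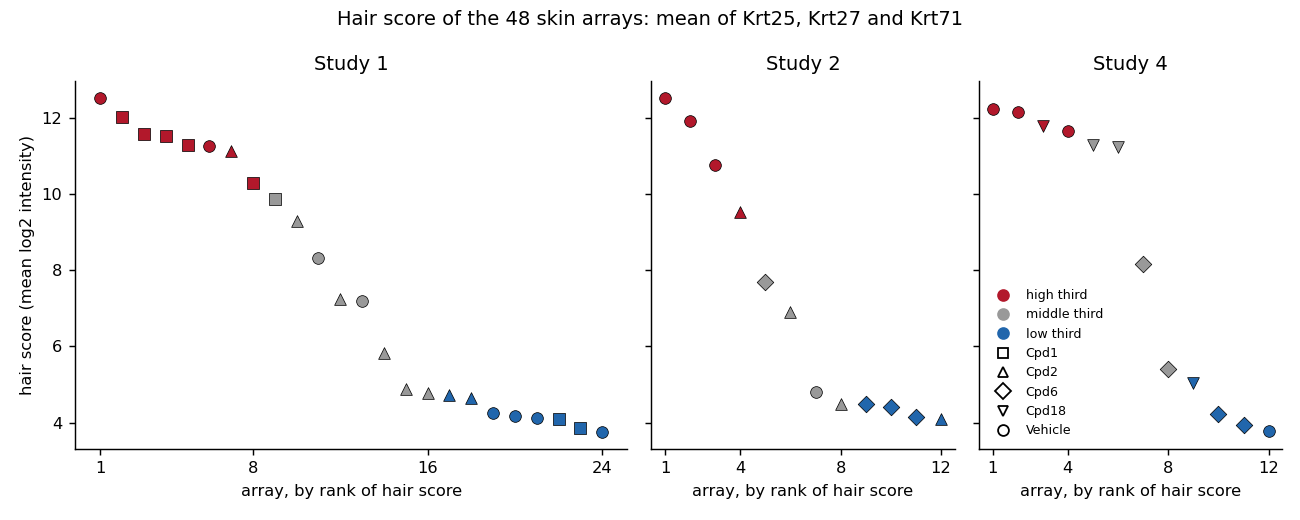
Hair score of each of the 48 arrays (mean log2 intensity of Krt25, Krt27 and Krt71, vertical axis) by study and treatment, with high, middle and low arrays in separate colours. The scores run from 3.75 to 12.52, and the 6 arrays between 6 and 9 are few beside the 20 above and the 22 below.

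High and low arrays were unevenly spread over the treatments. Vehicle gave 8 high and 5 low arrays, Cpd1 5 and 2, Cpd2 2 and 3, Cpd18 1 and 1, and Cpd6 gave 0 high and 5 low arrays. The fit therefore held 1 mean for each of the 9 treatment groups of the 3 studies, so that high and low arrays were compared within a treatment. Only the 6 treatment groups with both kinds of array, which held 13 high and 11 low arrays, inform the fitted difference, and in Study 2 this is 1 high against 1 low array of Cpd2. For Cpd6, which had no high array, hair score and treatment cannot be told apart. All differences below are fitted log2 intensities of high minus low arrays, with p-values from limma after Benjamini-Hochberg adjustment over all 28786 tested probesets outside the score genes, and a call means an adjusted p under 0.05.

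Over the 3 studies, 1038 probesets were higher in the high arrays, 3.61% of those tested, and 332 were lower, 1.15%. The increases were the larger changes, since 237 probesets were called higher by over 2-fold and 56 by over 16-fold, against 2 called lower by over 2-fold. By gene, taking the brightest probeset of each, 760 of 15317 rose and 172 fell, and 821 of these 932 genes had the same sign in every study. The calls come from the same arrays, so a shared sign is in part built in. The sign in Study 2 rests on 1 array against 1. In 96 probesets (0.333%) every high array stood above every low array in each of the 3 studies, and the same in reverse held for 0 (0.0%). That count takes no account of treatment, and in Study 2 it sets 3 vehicle and 1 Cpd2 array against 3 Cpd6 and 1 Cpd2 array, so that hair score and treatment cannot be told apart in it. These arrays were ranked by genes of the follicle, so the separation of other genes of the same structure is in part what the ranking chose. In whole skin, fewer cells of a type and less RNA per cell cannot be told apart, for any gene here.

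The library whose absence moved the count most was vehicle replicate 4 of Study 1. It had the highest score of all, and the lowest mean level of adipocyte markers (9.33, against 10.35 in the next high array of its study). Without it 410 probesets rose and 41 fell. Over all fits that left out 1 array, 410 to 1247 rose and 41 to 786 fell, with 786 without vehicle replicate 1 of Study 1. Counts for the gene groups are given without vehicle replicate 4 of Study 1 too where that moved them by over 1.5 times. The part of the fat layer in the other differences was not tested beyond a fit with the mean adipocyte level as a covariate, in which 181 probesets rose and 7 fell.

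The keratin-associated proteins, the matrix proteins of the hair shaft, changed most uniformly. All 35 members that passed the filter on dim probesets rose, by 0.98 to 7.31 and with a median of 4.64, beside a median of -0.01 over all tested genes. A member could pass that filter through the high arrays alone, since 22 of the 35 had a mean in the low arrays under the filter of 2.93. Without a filter, all 38 members on the array had a positive difference, 35 were called and the median was 4.34. In 24 members the high and low arrays did not overlap in any study, and without vehicle replicate 4 of Study 1 34 of 35 were called. With the adipocyte level as a covariate 33 were.

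By class, the high glycine-tyrosine proteins had the highest median difference, 5.25 for 10 members. The high sulfur proteins had 4.67 for 10 members, the other keratin-associated proteins 4.64 for 5, and the ultra-high sulfur proteins 2.47 for 10. Krtap6-5, of the high glycine-tyrosine class, had a lowest, median and highest log2 intensity of 4.78, 10.35 and 12.15 in the high arrays, against 1.79, 2.07 and 2.72 in the low arrays, and differed by 7.31 (SE 0.59, adjusted p = 1.24e-09). Krtap22-2, of the same class, had 2.93, 9.18 and 11.72 in the high arrays, against 1.44, 1.72 and 2.28 in the low arrays, and differed by 6.56 (SE 0.65, adjusted p = 6.78e-08). The low arrays of both genes lay at the floor of the array and did not reach the lowest high array.

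Krtap15, a high sulfur protein, had 4.94, 9.89 and 12.41 in the high arrays, against 1.90, 2.42 and 3.87 in the low arrays, and differed by 6.94 (SE 0.52, adjusted p = 3.54e-10). Krtap1-5 differed by 6.49, Krtap4-7 by 6.08 and Krtap3-3 by 6.08, also without overlap, and Krtap19-5 differed by 6.54 with overlap in Study 1, where its high arrays began at 2.57 and its low arrays ended at 3.39. The least change among the called members was that of Krtap5-1, 0.98 (adjusted p = 0.0381), an ultra-high sulfur protein. Since the members of a class are near copies of each other, a probeset may also read its neighbours, and the differences of single members are less certain than that of the class.

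Hair shaft keratins, the intermediate filaments of cortex and cuticle, rose in 7 of 8 tested members, with a median difference of 5.26. Krt34, a cortex keratin, had a lowest, median and highest log2 intensity of 6.50, 9.90 and 11.82 in the high arrays, against 2.33, 3.40 and 3.92 in the low arrays, and differed by 6.30 (SE 0.44, adjusted p = 6.78e-11). Krt31, its neighbour in the cortex, had 5.92, 9.41 and 11.92 in the high arrays, against 2.72, 3.53 and 5.31 in the low arrays, a difference of 5.53 (adjusted p = 2.20e-08). Both separated without overlap, and Krt33a (5.88), Krt35 (5.40) and Krt86 (5.12) did the same. Krt40 (1.07) and Krt84 (0.87, adjusted p = 0.0356) rose less, and Krt39 (0.34, adjusted p = 0.241) did not pass the test. S100a3, a calcium-binding protein of the hair cuticle, differed by 4.86 (adjusted p = 1.10e-11), with 8.61, 9.97 and 12.25 in the high arrays, against 4.32, 5.14 and 6.75 in the low arrays.

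The inner root sheath itself, beyond the score genes, rose in 5 of 7 tested members with a median of 4.37. Krt73, a keratin of the sheath cuticle, had a lowest, median and highest log2 intensity of 8.21, 10.63 and 11.69 in the high arrays, against 2.28, 3.08 and 4.79 in the low arrays, and differed by 7.12 (SE 0.30, adjusted p = 5.97e-16). Krt26, another keratin of the sheath, had 6.59, 9.60 and 11.23 in the high arrays, against 1.90, 2.54 and 3.21 in the low arrays, and differed by 6.41 (SE 0.40, adjusted p = 1.12e-11). Krt72 differed by 4.37 (adjusted p = 1.61e-06). None of these overlapped between the groups.

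Padi3, which converts arginines of trichohyalin to citrulline as the sheath hardens, had 5.65, 8.64 and 10.62 in the high arrays, against 3.03, 3.60 and 4.06 in the low arrays, and differed by 4.87 (SE 0.43, adjusted p = 7.93e-09). Cux1, a homeobox protein of the sheath lineage, differed by 0.57 (adjusted p = 0.00572). The crosslinking enzyme Tgm3 had a difference of 0.70 (adjusted p = 0.0841) and the sheath regulator Gata3 one of 0.07, and neither passed the test.

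**Figure D2:**
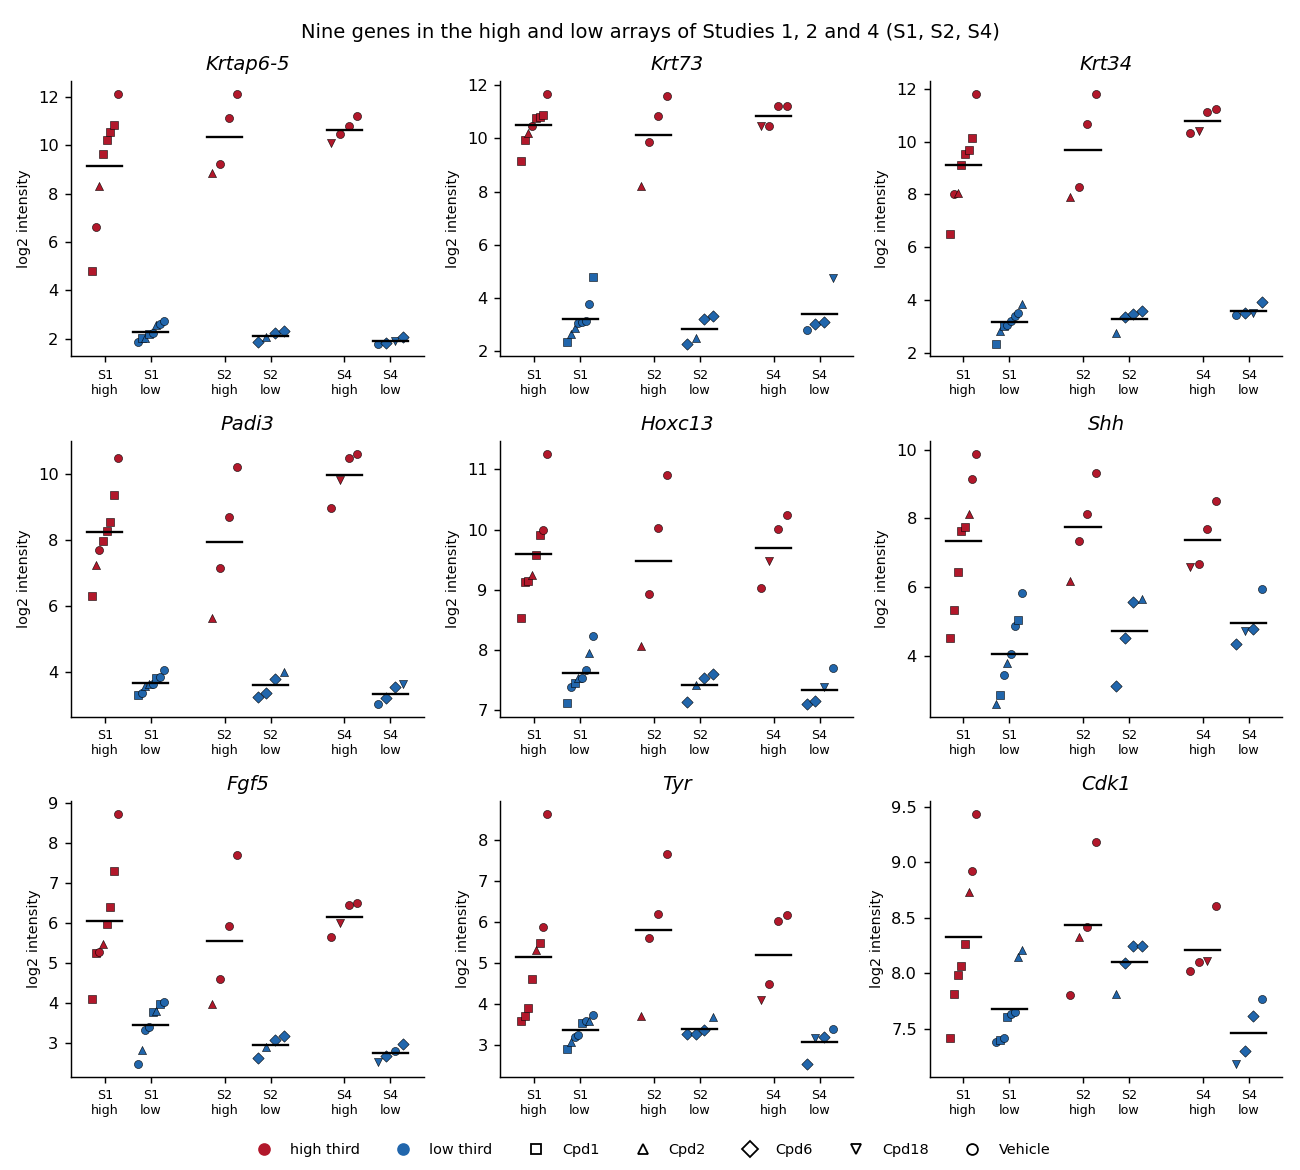
Log2 intensity (vertical axis) of named genes in each high and each low array, by study, with symbols for the treatments and a line at the mean of each group. For Krtap6-5, Krt73, Krt34 and Padi3 the lowest high array stands above the highest low array, while for Hoxc13, Shh, Fgf5, Tyr and Cdk1 the groups overlap in part over all 32 arrays.

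Keratins of the outer root sheath and the companion layer moved less, with 3 of 6 called higher and a median of 0.45. Krt75, of the companion layer, had 8.96, 10.51 and 12.00 in the high arrays, against 6.91, 9.05 and 9.69 in the low arrays, and differed by 1.43 (adjusted p = 0.000783). Krt6a differed by 1.08 (adjusted p = 0.00101) and Krt17 by 0.26 (adjusted p = 0.0277). Krt15, a keratin of the bulge and basal layer, had 12.07, 12.67 and 12.96 in the high arrays, against 12.49, 12.76 and 12.85 in the low arrays, with a difference of -0.05, and its groups overlapped throughout.

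Among transcription factors of the follicle, 9 of 16 rose and 0 fell, with a median of 0.51, and 5 rose without vehicle replicate 4 of Study 1. Hoxc13, which drives hair keratin genes in the matrix and shaft, had a lowest, median and highest log2 intensity of 8.06, 9.53 and 11.26 in the high arrays, against 7.10, 7.48 and 8.24 in the low arrays, and differed by 2.05 (SE 0.23, adjusted p = 6.89e-07). The groups of Hoxc13 overlapped when pooled and stood apart in each study. Dlx2, a homeobox factor, had 7.01, 8.41 and 10.47 in the high arrays, against 4.91, 5.90 and 7.13 in the low arrays, and differed by 2.83 (SE 0.34, adjusted p = 2.48e-06). Dlx3, whose loss in mouse skin stops hair formation, had 9.62, 10.43 and 11.81 in the high arrays, against 8.08, 8.97 and 9.43 in the low arrays, and differed by 1.75 (SE 0.22, adjusted p = 5.13e-06).

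Foxn1, the gene of the nude mouse, differed by 1.17 (adjusted p = 0.00449), and Msx1 by 0.88 (adjusted p = 0.00458). Lef1, the nuclear partner of beta-catenin in the matrix, had 3.16, 4.32 and 6.27 in the high arrays, against 3.18, 3.73 and 4.30 in the low arrays, and its difference of 0.72 did not pass the test (adjusted p = 0.077). Other Hox genes than Hoxc13, which mark position along the body, stood in contrast, with 0 of 29 called higher, a median of -0.01 and only Hoxd9 called lower (-0.32, adjusted p = 0.033). Hoxd9 was not called without vehicle replicate 3, 4, 6 or 7 of Study 1 or vehicle replicate 2 of Study 4.

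Signalling genes were called in a few members each, beside 760 of 15317 tested genes that rose and 172 that fell. Here and below, a list with 1 or 2 calls is not read as a result about the list. Sonic hedgehog (Shh), the ligand that the hair matrix sends to the dermal papilla in growth, had a lowest, median and highest log2 intensity of 4.52, 7.65 and 9.88 in the high arrays, against 2.59, 4.60 and 5.95 in the low arrays, and differed by 3.05 (SE 0.49, adjusted p = 0.000287). In Study 2 Shh read 6.18, 7.33, 8.13 and 9.31 in the high arrays, against 3.12, 4.50, 5.56 and 5.64 in the low arrays, and in Study 4 it read 6.59, 6.67, 7.68 and 8.52 in the high arrays, against 4.34, 4.71, 4.77 and 5.95 in the low arrays. The groups overlapped in Study 1 and not in these 2 studies, where 3 of the 4 high arrays were vehicle and, in Study 2, 3 of the 4 low arrays were Cpd6. Within treatments the fitted difference of Shh was 3.89 in Study 1 (adjusted p = 9e-05), 0.54 in Study 2 (adjusted p = 0.949) and 1.75 in Study 4 (adjusted p = 1).

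Of the hedgehog list 2 of 9 rose, Shh and the effector Gli2 (0.53, adjusted p = 0.0476). The pathway's target genes had positive differences that did not pass the test, 0.81 for Gli1 (adjusted p = 0.0615), 0.87 for Hhip (adjusted p = 0.0703) and 0.26 for the receptor Ptch1 (adjusted p = 0.153). Without vehicle replicate 4 of Study 1, or without the filter, 1 of the 9 was called. The same held without most other single arrays.

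Of 26 Wnt pathway genes 4 rose and 0 fell, with a median of 0.10. None, 0, were called without vehicle replicate 4 of Study 1 or without vehicle replicate 2 of Study 4. Only 2 rose without any of several other arrays. Those that rose were the secreted inhibitors Wif1 (1.01, adjusted p = 0.0297) and Sfrp1 (0.32, adjusted p = 0.0387), the intracellular inhibitor Nkd2 (0.68, adjusted p = 0.0218) and the ligand Wnt11 (0.58, adjusted p = 0.0474). Many genes of the list are inhibitors of the pathway, so inhibitors among these calls give no direction for the pathway. Of 19 BMP and TGF-beta genes in the list 4 rose and 0 fell, and Bmp5, a ligand outside the list, fell. Bmp8a, a ligand, had 3.50, 4.58 and 5.85 in the high arrays, against 2.44, 2.76 and 3.35 in the low arrays, without overlap, and differed by 1.58 (adjusted p = 7.76e-05). Bambi, a receptor without kinase that damps these signals, had 7.39, 8.16 and 10.04 in the high arrays, against 5.97, 6.70 and 7.52 in the low arrays, and differed by 1.42 (adjusted p = 0.0017). The response genes Id4 (0.37) and Id3 (0.27) rose less, and 2 of the 19 were called without vehicle replicate 4 of Study 1.

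Of 25 other growth factor genes 2 rose and 1 fell, or 1 and 0 without vehicle replicate 4 of Study 1. Leaving out most other single arrays also took away a call. Fgf5, whose loss gives mice with long hair because it ends growth, had 3.98, 5.95 and 8.72 in the high arrays, against 2.48, 3.03 and 4.02 in the low arrays, and differed by 2.69 (SE 0.41, adjusted p = 0.000105). The groups of Fgf5 overlapped by little when pooled, and within each of the 6 treatment groups with both kinds of array every high array stood above every low one. Tgfa, whose loss gives wavy hair, differed by 0.66 and Fgf1 by -0.44, both with an adjusted p of 0.047, and neither was called without the filter.

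Of the dermal papilla list, the mesenchymal cells at the base of the follicle, 2 of 16 rose, the protease Corin (1.65, adjusted p = 0.00675) and Wif1, and 1 was called without vehicle replicate 4 of Study 1, where Wif1 lost its call. The count was also 1 without vehicle replicate 1 or Cpd2 replicate 2 of Study 1 or vehicle replicate 2 of Study 4. Corin had 2.77, 4.58 and 7.17 in the high arrays, against 2.08, 2.82 and 3.35 in the low arrays. Of 15 genes of bulge stem cells and the resting follicle only Tbx1 rose (0.68, adjusted p = 0.00883), and the bulge surface marker Cd34 had 10.39, 10.95 and 11.19 in the high arrays, against 10.17, 10.92 and 11.31 in the low arrays, so that its groups lay on top of each other. Of 21 genes whose mutation changes the coat in mice, 8 rose and 0 fell, with a median of 0.26. The count was 5 without vehicle replicate 3, 4 or 6 of Study 1 or vehicle replicate 2 of Study 4. They were S100a3, Fgf5, Hoxc13, Krt75, Foxn1 and Tgfa, already described, with the membrane protease St14 (0.53) and the transcription factor Ovol1 (0.30).

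**Figure D3:**
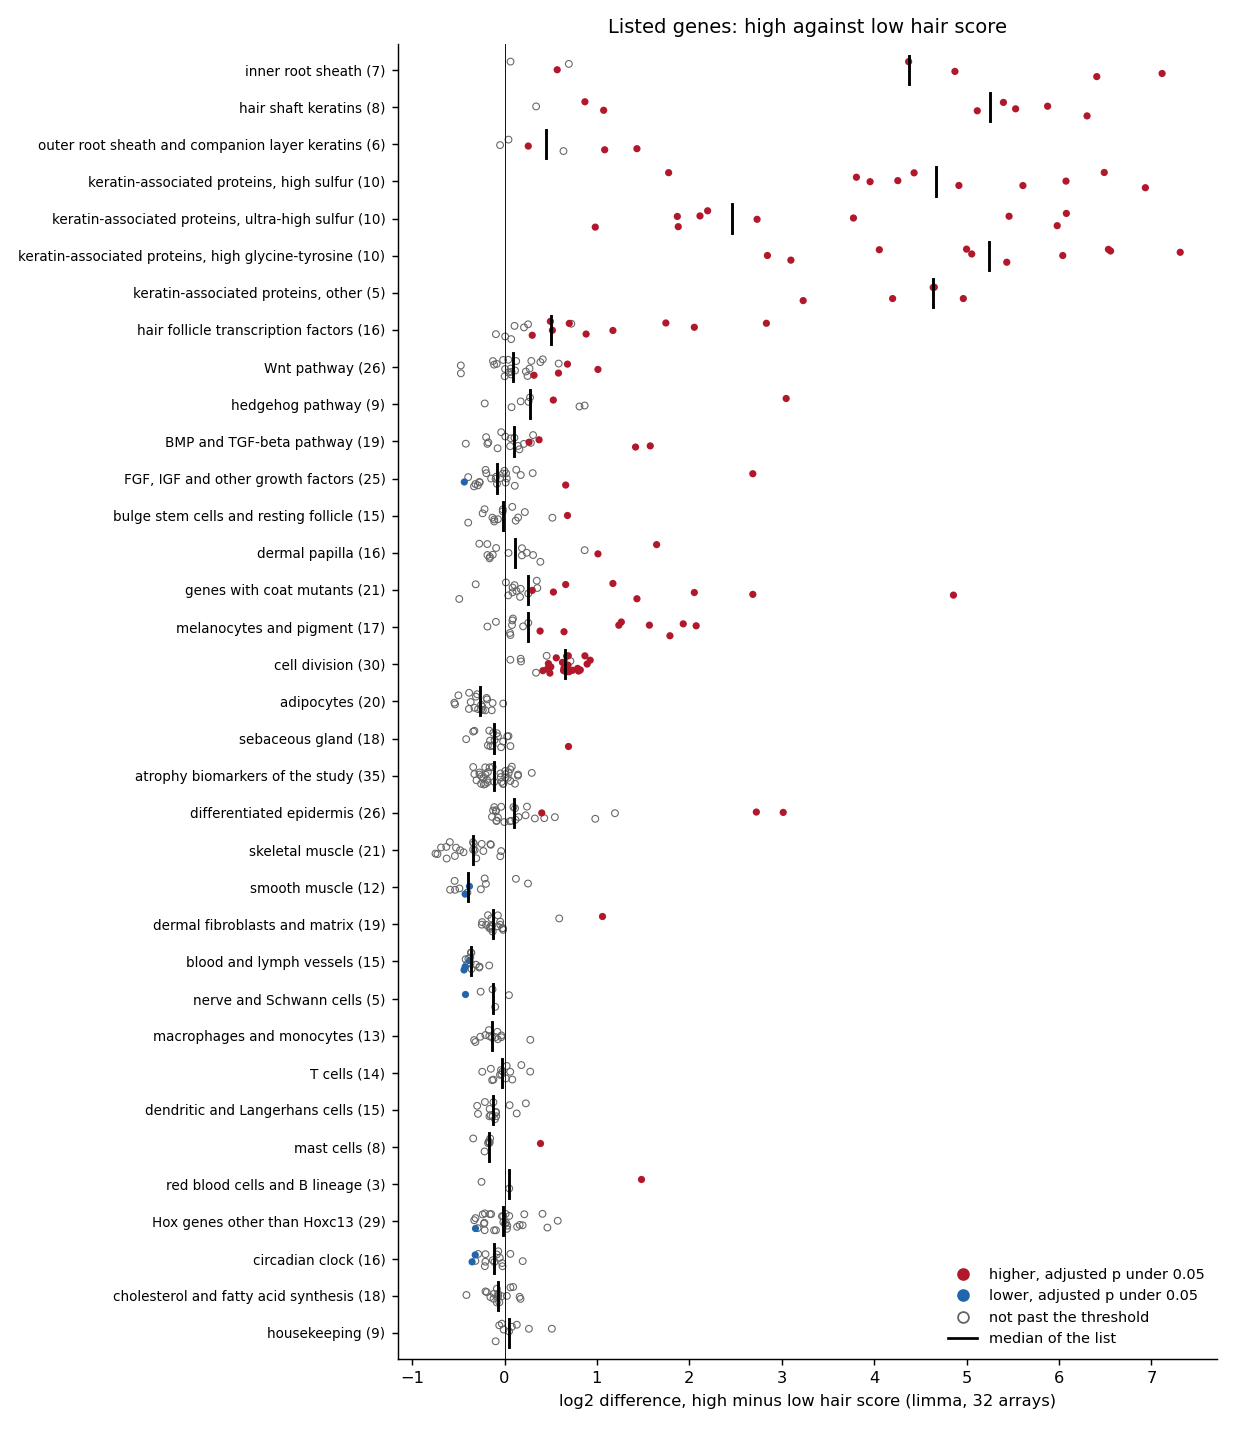
Fitted log2 difference, high minus low arrays (horizontal axis), of every tested gene of each list, with called genes marked and a line at the median of the list. The keratin-associated proteins, hair shaft keratins and inner root sheath lie far to the right, while adipocyte, muscle and vessel genes lie just to the left of 0.

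Melanocyte and pigment genes rose in 8 of 17 tested members and fell in 0, with a median of 0.26. Tyr, tyrosinase, the rate-limiting enzyme of melanin synthesis, had a lowest, median and highest log2 intensity of 3.58, 5.41 and 8.65 in the high arrays, against 2.53, 3.27 and 3.74 in the low arrays, and differed by 1.93 (adjusted p = 0.00231). Tyrp1, which acts after it, had 5.33, 7.31 and 10.82 in the high arrays, against 3.83, 5.33 and 6.08 in the low arrays, and differed by 2.07 (adjusted p = 0.00769). Dct, the third enzyme of the path, had 3.73, 6.30 and 8.60 in the high arrays, against 3.71, 4.35 and 5.36 in the low arrays, and differed by 1.57 (adjusted p = 0.00376).

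The melanosome genes Slc24a5 (1.79), Pmel (1.26), Gpr143 (1.24) and Mlana (0.64) and the receptor Kit (0.39) also rose. Mitf, the factor that sets melanocyte identity, had 10.08, 10.81 and 11.17 in the high arrays, against 10.23, 10.63 and 11.14 in the low arrays, and a difference of -0.09 on the probeset read here, so its level did not separate the groups. Without vehicle replicate 4 of Study 1, whose Tyr of 8.65 stood above all others, 5 of the 17 rose, and with the adipocyte level as a covariate 1 did.

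Cell division genes shifted by little but together. All 30 tested had a positive difference, 24 were called higher, and the median was 0.66. Cdk1, the kinase that drives entry into mitosis, had 7.41, 8.18 and 9.44 in the high arrays, against 7.18, 7.64 and 8.25 in the low arrays, and differed by 0.82 (adjusted p = 0.00191). Ccna2, cyclin A2, differed by 0.93 (adjusted p = 0.00419), the checkpoint kinase Bub1 by 0.89 (adjusted p = 0.0182) and Aurkb, Aurora B kinase, by 0.87 (adjusted p = 0.00165).

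The mean level of the 30 genes was 6.50, 7.01 and 8.04 in the high arrays (lowest, median and highest), against 6.42, 6.71 and 6.92 in the low arrays, with much overlap. Without vehicle replicate 4 of Study 1, 14 were called, with a median of 0.53, and all 30 stayed positive. With the adipocyte level as a covariate 2 were called, with a median of 0.40 and again 30 positive. The calls of this list thus depend on which array or covariate enters, and the sign of the 30 differences did not change in these fits.

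**Figure D4:**
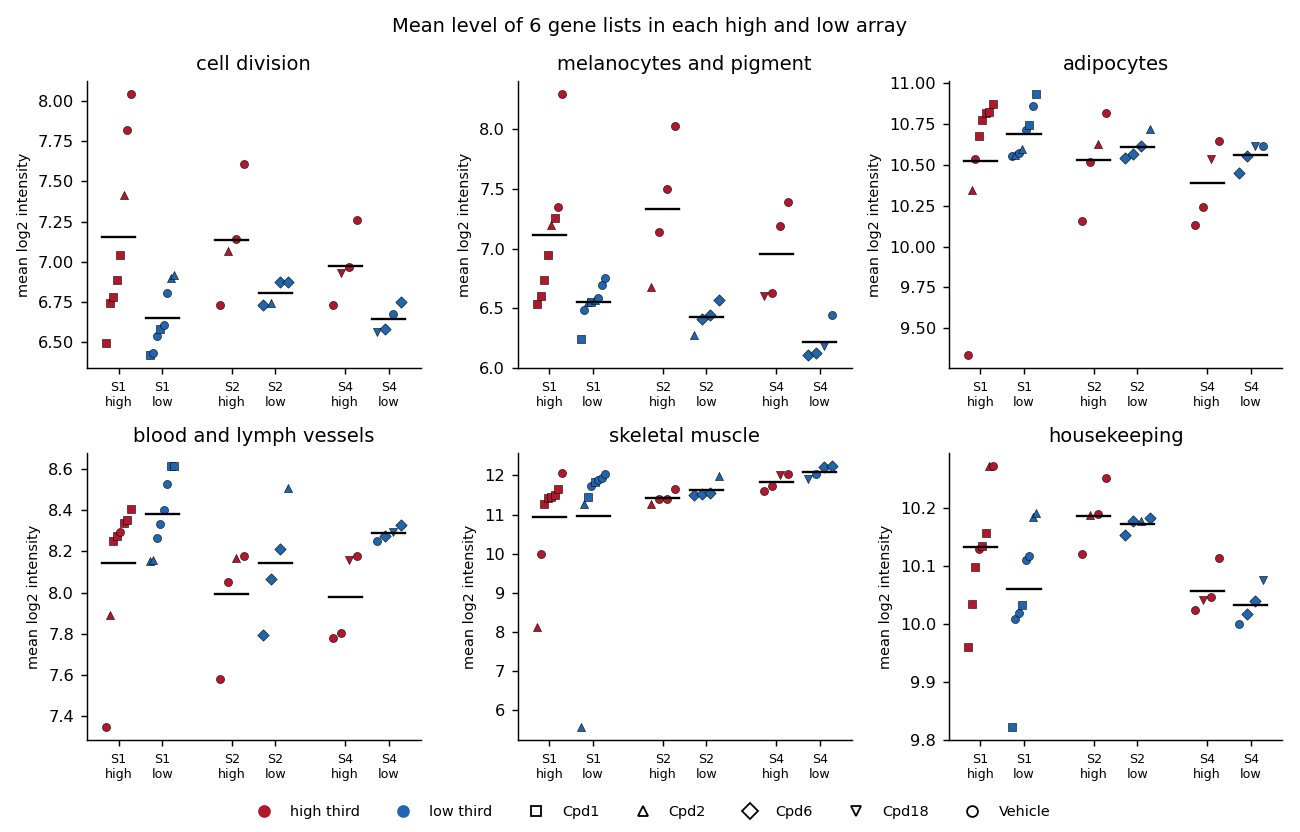
Mean log2 intensity of list members (vertical axis) in each high and each low array, by study, with symbols for the treatments and a line at the mean of each group. Vehicle replicate 4 of Study 1 is the lowest array for adipocytes (9.33) and vessels (7.34) and the highest for melanocytes (8.30), and the skeletal muscle level falls to 5.56 in 1 low and 8.14 in 1 high array of Study 1.

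Of 26 genes of differentiated epidermis 3 rose and 0 fell, or 7 rose without vehicle replicate 1 of Study 1, and the 3 were small proline-rich proteins, which crosslink into the cell envelope. Sprr1b had 4.29, 8.54 and 10.77 in the high arrays, against 2.94, 5.77 and 8.20 in the low arrays, and differed by 3.02 (adjusted p = 0.00295). Sprr2h differed by 2.73 (adjusted p = 0.00153) and Sprr1a by 0.40 (adjusted p = 0.00996). Krt10 and Lor, which define differentiated epidermis and check that the tissue was skin, were near the top of the scale in every array, with 12.14, 12.66 and 12.89 for Krt10 in the high arrays, against 12.45, 12.75 and 12.98 in the low arrays.

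In the dermis, 1 of 19 fibroblast and matrix genes rose, Tnc, a matrix protein found around growing follicles, with 7.30, 8.22 and 9.57 in the high arrays, against 6.45, 7.09 and 7.99 in the low arrays, and a difference of 1.06 (adjusted p = 0.00101). The median of that list was -0.13. Of 18 sebaceous gland genes 1 rose, the desaturase Fads2 (0.69, adjusted p = 0.0209), with a median of -0.12, and 0 without vehicle replicate 4 of Study 1 or vehicle replicate 2 of Study 4. Of 35 genes that the study had chosen on the arrays of Studies 1 and 2 as biomarkers of gland atrophy 0 were called in either direction (limma; 5 had an unadjusted p under 0.05), with a median of -0.11, and that list is not independent of the compounds given.

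The 2 DGAT enzymes did not separate the groups. Dgat1, the enzyme that the compounds inhibit, had 9.85, 10.85 and 11.12 in the high arrays, against 10.24, 10.71 and 11.10 in the low arrays, and a difference of -0.17 that did not pass the test (SE 0.10, adjusted p = 0.364). Dgat2, the other enzyme of that step, had 8.98, 10.54 and 10.90 in the high arrays, against 10.30, 10.50 and 11.15 in the low arrays, and a difference of -0.24 (adjusted p = 0.292). With the adipocyte level as a covariate both differences turned positive.

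The genes lower in the high arrays were lower by little, with 2 probesets past 2-fold. The largest decreases with one sign in all studies were those of Ankrd2, a muscle ankyrin repeat protein (-0.96, adjusted p = 0.0406), Cnksr2, a scaffold of Ras signalling (-0.88, adjusted p = 0.00764), and Bmp5, a ligand (-0.80, adjusted p = 0.0311). Bmp5 had 3.05, 3.92 and 5.30 in the high arrays, against 2.93, 4.55 and 5.76 in the low arrays, and its groups overlapped over most of their range. The other 7 were Pappa2, a protease of IGF-binding proteins (-0.72), the potassium channel Kcna1 (-0.71), the anion exchanger Slc26a7 (-0.67), the NADPH oxidase Nox4 (-0.66), the phospholipid transporter Abcb4 (-0.65), and the unnamed transcripts A530047J11Rik and 5031426D15Rik (-0.64 each).

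Vessel genes leaned lower. All 15 had a negative difference, 3 fell and the median was -0.37. Those were Tek, the angiopoietin receptor (-0.44, adjusted p = 0.0172), Vwf, von Willebrand factor (-0.43, adjusted p = 0.0492), and Flt1, a receptor for VEGF (-0.38, adjusted p = 0.0447). Tek had 8.54, 9.35 and 10.04 in the high arrays, against 8.96, 9.51 and 9.90 in the low arrays, so the groups overlapped. The mean of the list was 7.34, 8.17 and 8.41 in the high arrays, against 7.80, 8.29 and 8.62 in the low arrays, and its lowest value was again vehicle replicate 4 of Study 1. In Study 4 the vessel means did not overlap between the groups. These means take no account of treatment, and 3 of the high arrays there were vehicle and 2 of the low arrays Cpd6. Within treatments 0 of the 15 were called lower in Study 4. Without vehicle replicate 4 of Study 1, 0 of the 15 were called over all studies, with a median of -0.25, and without the filter on dim probesets 1 was. Leaving out other arrays moved the count too, to 1 for many of them and up to 11 of 15 without vehicle replicate 1 of Study 1.

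Smooth muscle genes had 2 of 12 called lower, Myh11 (-0.43, adjusted p = 0.019) and Itga8 (-0.38, adjusted p = 0.022), a median of -0.39, and 0 called without vehicle replicate 4 or 6 without vehicle replicate 1 of Study 1. All 20 adipocyte genes had a negative difference and 0 were called (limma; 13 had an unadjusted p under 0.05), with a median of -0.27, or -0.12 without vehicle replicate 4 of Study 1, and 6 were called without vehicle replicate 1 of that study. Adipoq, adiponectin, had 11.24, 12.28 and 12.49 in the high arrays, against 11.99, 12.30 and 12.56 in the low arrays. Skeletal muscle, which lies under the skin and enters a biopsy by its depth, had 0 of 21 called (1 with an unadjusted p under 0.05) and a median of -0.34, with a mean level of 8.14, 11.47 and 12.07 in the high arrays, against 5.56, 11.85 and 12.24 in the low arrays. Without Cpd2 replicate 3 of Study 1, the low array at 5.56, 5 of the 21 were called lower. Adipocyte, vessel and muscle genes thus leaned the same way as the other genes that were lower. Of all tested probesets 332 were called lower, against 135 with the skeletal muscle mean as a covariate and 7 with the adipocyte mean. The part of the tissue makeup in those genes was not tested beyond these fits.

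Immune cell lists held few calls. Of 13 macrophage, 14 T cell and 15 dendritic cell genes 0 were called (limma; 0, 1 and 1 had an unadjusted p under 0.05), and their medians were -0.14, -0.03 and -0.12. Of 8 mast cell genes only Kit rose, which melanocytes also express, and 0 did without vehicle replicate 4 of Study 1 or any of 6 other arrays. Of 3 genes of red blood cells and the B lineage Slc4a1, the anion exchanger of red cells, rose by 1.48 (adjusted p = 0.0229), and was not called without vehicle replicate 4 of Study 1 or, in Study 4, Cpd18 replicate 1 or 4 or vehicle replicate 2. Of 5 nerve and Schwann cell genes Mag, a myelin protein, fell by 0.42 (adjusted p = 0.0266), and was not called without Cpd1 replicate 2 or 4 of Study 1 or, in Study 4, Cpd18 replicate 1 or 4 or vehicle replicate 2.

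Of 16 circadian clock genes Nr1d1 and Nr1d2, the nuclear receptors that repress the clock activator, were lower (-0.35, adjusted p = 0.0497, and -0.32, adjusted p = 0.0249). Without vehicle replicate 4 of Study 1, 0 were called, and without most other single arrays 1 was. Of 18 genes of cholesterol and fatty acid synthesis 0 were called (6 with an unadjusted p under 0.05), and of 9 housekeeping genes 0 (4 with an unadjusted p under 0.05). Actb, the cytoskeletal actin, had 13.02, 13.09 and 13.16 in the high arrays, against 13.06, 13.11 and 13.23 in the low arrays.

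The 3 studies used separate mice and were set side by side. In Study 1 alone 671 probesets rose (2.33%) and 111 fell (0.386%), in Study 4 82 rose (0.285%) and 0 fell (0.0%), and in Study 2, with 1 array against 1 within a treatment, 2 rose (0.00695%) and 1 fell (0.00347%). The 3 of Study 2 were Krt73 (5.71) and Prr9, a proline-rich protein (6.66), both higher, and Magt1 (-1.34), named after their values were seen. With 1 array on each side, their test borrows the spread of the other treatment groups and assumes that these arrays vary alike, and with array weights 259 probesets were called in Study 2 in place of 3. Without vehicle replicate 4, the count in Study 1 was 192 in both directions, and without vehicle replicate 2 of Study 4 the count there was 3. The difference between Study 2 and Study 1 was called for 0 probesets (0.0%, limma, 2474 with an unadjusted p under 0.05, and 60 called with array weights), and so was that between Study 4 and Study 1 (0.0%, 428 with an unadjusted p under 0.05).

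Of the 487 genes called higher in Study 1, 95.9% were also positive in Study 4, with a median of 0.47, and 77.6% in Study 2, with a median of 0.28. For all 7350 tested genes positive in Study 1 these shares were 68.0% in Study 4 and 63.7% in Study 2. Of the 49 genes called lower in Study 1, 73.5% were negative in Study 4, beside 67.7% of all 7967 genes negative in Study 1. In Study 2 these were 27 of the 49 and 3827 of the 7967. No test was run on these shares, since genes are not independent of one another.

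The keratin-associated proteins had a median difference of 4.41 in Study 1, 3.71 in Study 2 and 5.93 in Study 4, with 33, 0 and 22 of 35 called. Hair shaft keratins had medians of 5.31, 1.71 and 5.41 in Studies 1, 2 and 4, and the inner root sheath 4.05, 1.65 and 6.23. Cell division had 0.80, 0.35 and 0.35, with 23 of 30 called in Study 1 and 0 in the others. Melanocyte genes had 0.37, 0.43 and 0.18, with 6 of 17 called in Study 1 and 0 in the others, and vessels had -0.39, -0.21 and -0.26.

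**Figure D5:**
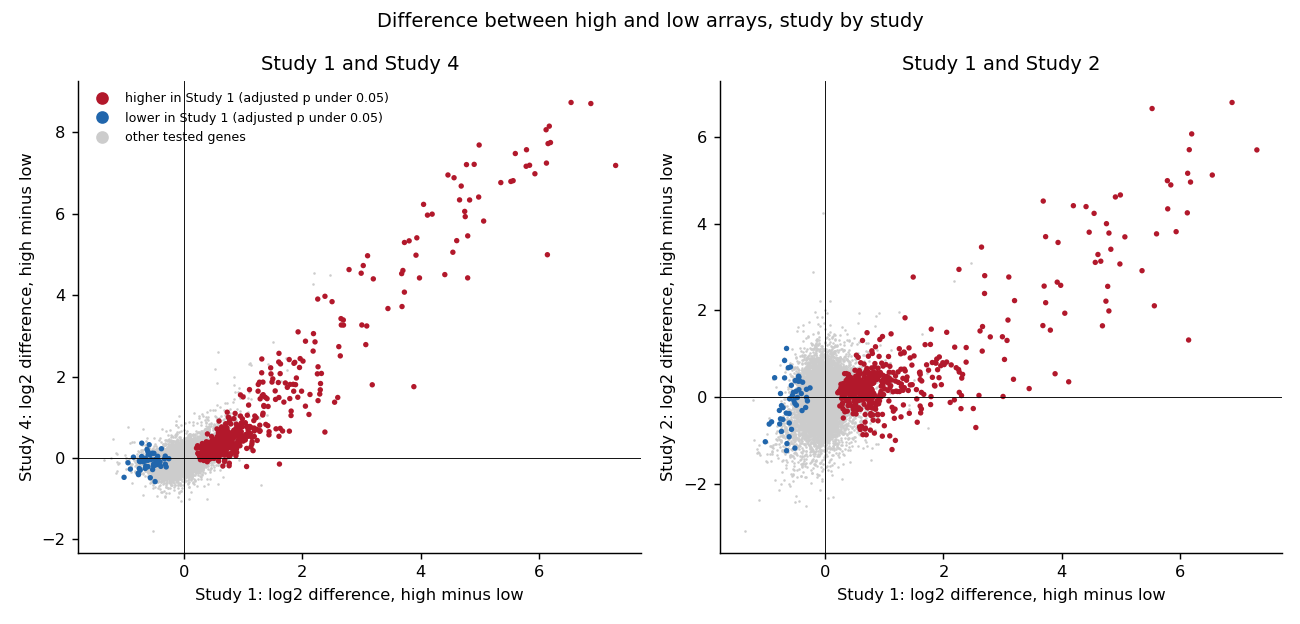
Fitted log2 difference, high minus low arrays, of every tested gene in Study 1 (horizontal axes) against Study 4 and against Study 2 (vertical axes), with the genes called in Study 1 in colour. The genes called higher in Study 1 lie mostly above 0 in Study 4 (95.9%) and less so in Study 2 (77.6%), where the difference rests on 1 high and 1 low array.

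The 16 arrays between the groups, which did not enter that fit, were fitted on their own against the score, with 1 mean per study and treatment group. Vehicle of Study 4 held 0 such arrays, and a group with 1 does not inform the slope. The largest group was Cpd2 of Study 1, with 5. From its highest to its lowest score (9.29 to 4.77), the muscle mean rose from 6.45 to 11.80 and the adipocyte mean from 10.05 to 10.65. Score and tissue makeup cannot be told apart in that group. Of the 760 genes called higher, 79.9% had a positive slope there, beside 60.2% of all tested genes, and of the 172 called lower 29.1% had one. All 35 keratin-associated proteins had a positive slope, with a median of 0.47 log2 units per unit of score, and 4 were called. Cell division genes were positive in 20 of 30. In that fit 14 probesets were called with a positive slope and 4 with a negative one.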

How the data were processed

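Skin RNA of 48 mice was measured on custom Affymetrix arrays, and groups were taken from the sample labels. The intensities, linear values from 1.60 to 13570 for 38385 probesets, were made by the authors with RMA, a method that removes background, brings the arrays to one distribution and merges probes into probesets (version not given in the sources used here), and the array medians lay between 26.4 and 30.8. No 2 arrays held identical values (highest correlation 0.996). Of the probesets 24478 name 1 gene, 65 several and 13842 none.

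The intensities were put on the log2 scale, and the dimmest probesets, with a mean below the 25th percentile (2.93), were left out, which kept 28789 and tested 28786 outside the score genes, for 15317 named genes. The absent call of the methods needs probe-level data and was not repeated. The fit used limma 3.58.1 in R 4.3.3 on the 32 arrays, with 1 mean per study and treatment, a term for high against low, moderation with an intensity trend and Benjamini-Hochberg adjustment. A nested fit gave the difference in each study and between studies. Each array is 1 mouse, so p-values rest on the spread between mice of a treatment group that remains after the term for high against low. The middle arrays do not enter that spread, and the number of arrays limits the precision. The fit was tested on simulated data with known changes. The remaining steps ran in Python 3.11.15, pandas 2.3.3, numpy 2.4.6 and matplotlib 3.10.9.

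A gene was read by its brightest probeset. The score genes, the 35 gene lists and the promoter motif were chosen with earlier results of these data known. Score genes and lists together held 619 genes, of which 524 passed the filter. Named were the 10 largest increases and 10 largest decreases among called genes with the same sign in every study, up to 4 called members and the defining members of each list, and Dgat1 and Dgat2. Further called members of a list, and Prr9 and Magt1, were named after their values were seen. Promoters come from RefSeq (GRCm38.p6), where 34 of 38 keratin-associated genes had an entry. Alternatives changed the filter, scaling, weights, moderation, model terms, score, ranking, covariates and arrays. Leaving out Study 2, Study 1 alone and the middle arrays alone were chosen after seeing the data.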

Additional observations from a re-analysis of the deposited data

Results flagged for a closer look

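In groups of 4 to 10 arrays, 16 measures were searched for an array whose gap to its nearest neighbour was large beside the range of its group (Dixon's test at the 95% level). Of 96 groups 6 held one, and chance alone gives about 1 in 20.

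Vehicle replicate 4 of Study 1, a high array, was the source of 3. Its mean adipocyte level of 9.334 lay below the other high arrays of that study, the nearest at 10.348. Its mean melanocyte level of 8.296 lay above them, the nearest at 7.353, and its Tyr, tyrosinase, of 8.647 did too, the nearest at 5.873. Skeletal muscle gave 2 more. Cpd2 replicate 3 of Study 1, a low array, had a mean of 5.56 with the nearest low array at 11.27, and Cpd2 replicate 1 of Study 2, a low array, had 11.99 with the nearest at 11.55. The last was Krt73 in Cpd18 replicate 1 of Study 4, a low array, at 4.746 with the nearest at 3.086, still below the lowest high array of that study. All values are log2 intensities.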

How the results depend on the processing

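The count of 1370 called probesets over the studies was within 1.5 times under no filter (1123), the 50th percentile filter (1421), equal medians (1391), quantile normalization (1379), array weights (1052), no trend (1090), additive terms (1600), study alone (1504), all 48 arrays split at the median of each study (961), z values (1508), ordinary least squares (950) and without Study 2 (1145). A similar count can hold other probesets. Of the 1370, 1338 were called again with equal medians, 797 with study alone and 740 with the split at the median of each study. The count was 3010 with the score of all 48 arrays as a continuous measure, 349 with arrays split at the median of each treatment group, 813 with the skeletal muscle mean as a covariate, 188 with the adipocyte mean, 420 for a fit of the Study 1 arrays alone and 18 for the middle arrays. The score without Tchh is the score used, so it gave no separate value. A replicate block within study gave 789. The labels do not say whether the numbers pair the mice. Same-numbered arrays correlated in their deviations at -0.16 to 0.19 on average, which cannot settle it without a reference value.

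By study, array weights gave 412 in Study 1, 259 in Study 2, 183 in Study 4 and 60 for Study 2 minus Study 1, the 50th percentile filter gave 5 in Study 2 and 50 in Study 4, and no trend gave 1 in Study 2. Leaving out 1 array gave 451 to 2003 over the studies, 192 to 1427 in Study 1, 3 to 10 in Study 2, 3 to 122 in Study 4, 0 to 1 for Study 2 minus Study 1 and 0 to 2 for Study 4 minus Study 1. Arrays that moved a count by over 1.5 times were, for all studies, vehicle replicate 4 (451) and vehicle replicate 3 (889) of Study 1 and Cpd18 replicates 1 (885) and 4 (883) of Study 4. For the Study 1 count of the nested fit they were vehicle replicates 4 (192) and 7 (521) and Cpd1 replicate 2 (1427). For its Study 4 count it was vehicle replicate 2, without which 1 high and 1 low array of Cpd18 inform the difference. For Study 2 alone they were, in Study 1, vehicle replicate 4 (5) and Cpd1 replicates 2 (6) and 8 (10), and, in Study 2, Cpd6 replicate 2 (9), through the shared estimate of spread.

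In 83 named genes and 4213 comparisons, 3589 kept the call or its absence, 612 lost it and 12 changed sign. In the middle arrays, per unit of score, these were Fgf5 (-0.0772), Slc24a5 (-0.0408), Sprr1b (-0.0852), Bub1 (-0.0547), Mag (0.0407), Nr1d1 (0.00038), Slc26a7 (0.153), Bmp5 (0.0298) and Nox4 (0.0347). Dgat1 changed to 0.0399 with study alone and 0.0672 with the adipocyte mean, and Dgat2 to 0.0943 with that covariate. The cause was not tested. Cell division calls were 12 of 30 with study alone. The low arrays lie at the floor of the array for most keratin-associated genes, so the size of those differences is limited by background.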

Other observations

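Several genes outside every list had large differences, all named after their values were seen. Prr9, a proline-rich protein whose gene lies in the epidermal differentiation cluster, differed by 5.94 (limma, adjusted p = 5.58e-16), with a mean log2 intensity of 11.57 in the high arrays, against 5.17 in the low arrays. Tchhl1, related to trichohyalin, differed by 5.15, the orphan receptor Gprc5d by 4.99, cornulin (Crnn) by 4.82, the gluconeogenic enzyme Fbp1 by 4.44, Lrrc15 by 3.81, the thyroid hormone binder Crym by 3.40, the protease Adamts20 by 3.19 and aggrecan (Acan) by 2.58. The gap junction proteins Gjb6 (2.22) and Gjb2 (1.92), the homeobox factors Dlx1 (2.09) and Dlx4 (1.86) and the transcription factors Mycn (1.81) and Myb (1.68) were also called higher.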
